A study of Mus musculus with 9 samples.

Results

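The Indian hedgehog axis of the uterus was followed through 9 genes, Ihh, Ptch1, Smo, Hhip, Gli1, Gli2, Gli3, Nr2f2 and Hand2, taken by gene symbol from the 18094 genes of a read count table. All 9 were found in the table, and 9 of 9 passed the low-count filter, which left 15186 genes for testing. RNA had been sequenced from the uterus of 9 female mice harvested at 13 weeks of age, with 3 mice in each of 3 groups. Tamoxifen+primidone mice were dosed as newborns, on days 1 to 5 of life, with 1 mg/kg of tamoxifen, which acts on estrogen receptors as an agonist or an antagonist depending on the tissue. From week 10 they were also injected with primidone, an anticonvulsant that also blocks the TRPM3 cation channel, at 2 mg/kg per day for 3 weeks. Tamoxifen mice received the same neonatal tamoxifen and then the vehicle alone as adults. Control mice received the solvent without tamoxifen as newborns and the vehicle as adults, a treatment that the labels spell "vesicle". Neonatal tamoxifen is a way of inducing adenomyosis, in which endometrium grows into the uterine muscle, and all the mice given primidone had been given tamoxifen first. The sources used here do not give the strain or the estrous stage at harvest. Total counts ran from 36393120 to 39958443 per library. Tamoxifen+primidone replicate 1 stood apart from the other mice of its group in several gene lists described further on, and some of the results that rest on it are given with and without it.

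Indian hedgehog, encoded by Ihh, is secreted by the uterine epithelium under progesterone and acts on the stroma beneath it. It binds the receptor Patched 1, which releases its block on Smoothened, and the GLI transcription factors then switch on targets that include Ptch1, Gli1 and Hhip themselves. In the stroma, the nuclear receptor encoded by Nr2f2 (COUP-TFII) acts downstream of this signal, and HAND2, a progesterone-dependent basic helix-loop-helix factor, restrains the growth factors through which stroma drives epithelial proliferation in response to estrogen.

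Hand2 was the axis gene that differed most firmly between groups. It was 1.63-fold higher in tamoxifen+primidone than in control uteri, at 45.7 ± 4.10 against 28.1 ± 2.43 CPM (read counts scaled to library size; SD, n = 3 each), while tamoxifen uteri had 31.0 ± 1.52 CPM, overlapping the control range. Smo was 1.24-fold higher in tamoxifen+primidone than in control uteri, at 149 ± 2.94 against 120 ± 3.50 CPM. Ihh, Ptch1, Hhip, Gli1, Gli2, Gli3 and Nr2f2 passed no test with edgeR at an adjusted p of 0.05, and Ihh and Gli1 varied widely between mice of a group.

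Relative to control uteri, 2 of 9 axis genes rose with tamoxifen+primidone and 0 fell, where 5.35% of all genes tested passed in either direction and 2.14% rose. In that comparison 3 axis genes, Hand2, Smo and Gli1, all higher, had an unadjusted edgeR p under 0.05, as 11.3% of all genes did in that direction and 23.2% in either. With tamoxifen alone 0 of 9 passed with edgeR, against 1.53% of all genes (0.573% higher and 0.961% lower), 0 passed with DESeq2 or limma, and 0 of 9 had an unadjusted edgeR p under 0.05, against 17.8% of all genes. Between tamoxifen+primidone and tamoxifen uteri 0 of 9 passed, against 0.0132% of all genes. Here 4 axis genes, all higher, had an unadjusted p under 0.05, as 6.3% of all genes did in that direction, and DESeq2 called 2 of them, Gli1 and Hand2, while limma called 0. DESeq2 also called more genes than edgeR here, 211 higher and 366 lower of all 15186. With both tamoxifen-dosed groups averaged, 1 of 9 rose relative to control, against 4.87% of all genes in either direction and 1.82% that rose. In the test of any difference among the 3 groups 1 of 9 passed, again Hand2 (edgeR adjusted p = 0.0120), against 3.84% of all genes. These comparisons share control and tamoxifen libraries, so their results are not independent of one another. The p-values measure the spread between the mice of these groups.

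**Figure D1:**
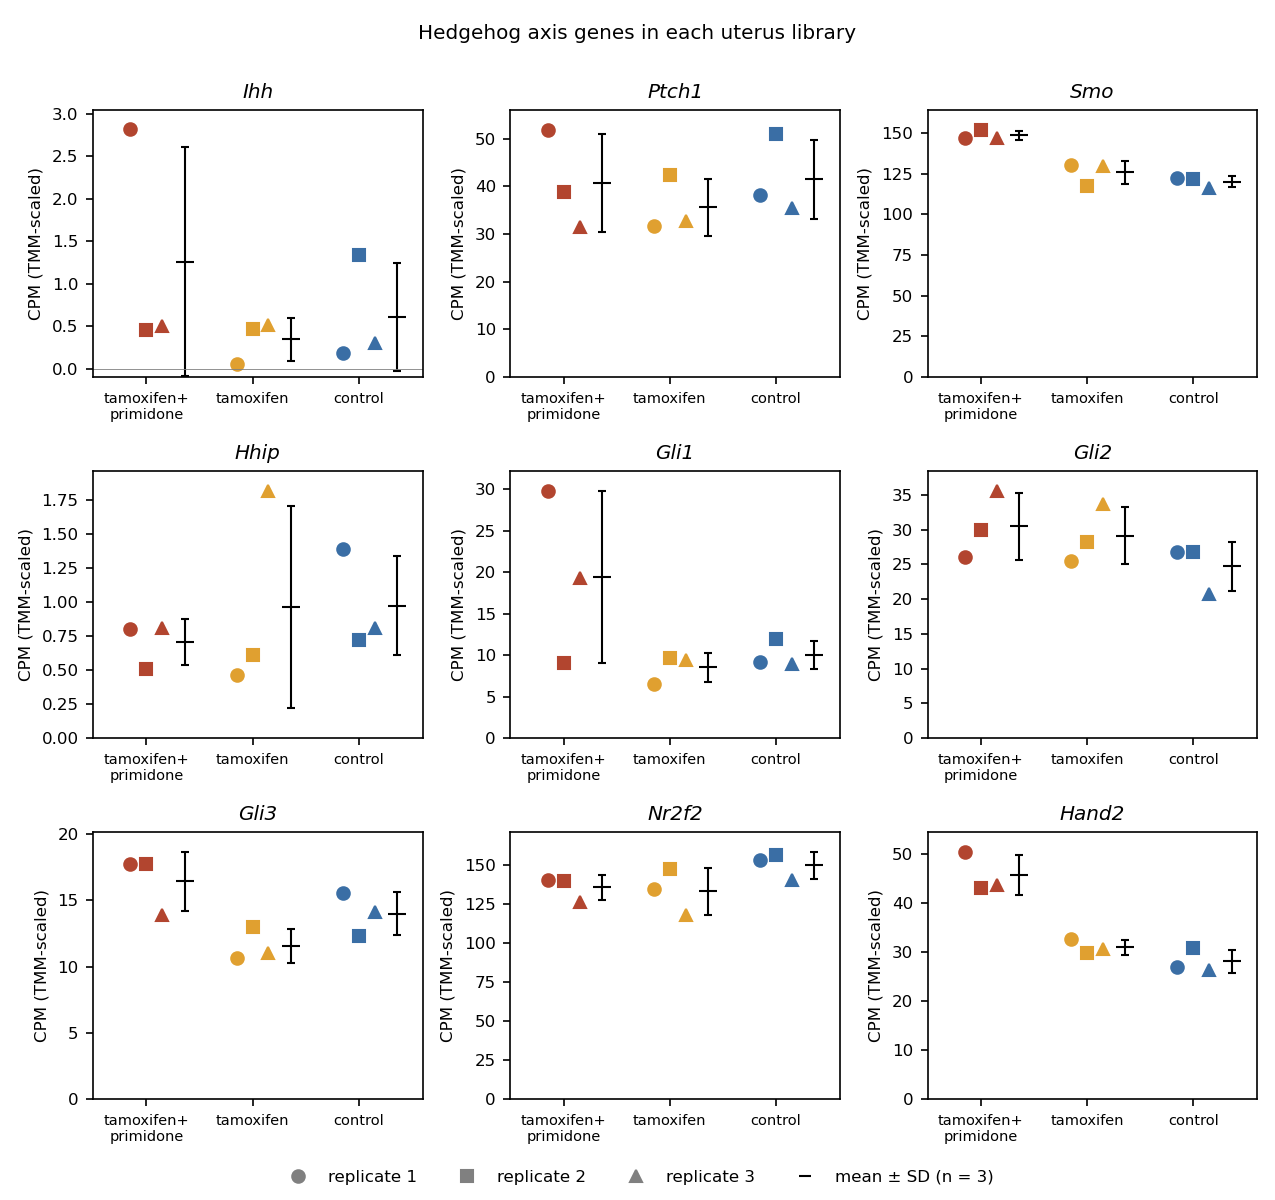
Levels of the 9 axis genes in each library, in CPM with TMM scaling, for tamoxifen+primidone, tamoxifen and control uteri. Points are single mice and bars are the mean ± SD of 3. The tamoxifen+primidone points of Hand2 and Smo lie above all points of the other groups, while a single tamoxifen+primidone mouse sets the top of Ihh, Ptch1 and Gli1.

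Compared per gene length, in FPKM averaged over the 9 libraries, the axis spanned a wide range of levels. Smo was the most abundant at 32.3 FPKM, followed by Nr2f2 at 22.5 and Hand2 at 15.7, and each of these lay above the next gene in the order in 9 of 9 libraries. Ptch1 averaged 5.13 FPKM, Gli1 3.49, Gli2 3.35 and Gli3 1.65. Ihh averaged 0.246 and Hhip 0.0965 FPKM, which placed them at the 22.9 and 17.5 percentile of all genes in the table, against the 88.4 percentile for Smo. Neighbours in this order were not always apart. Ptch1 exceeded Gli1 in 7 of 9 libraries, Gli1 exceeded Gli2 in 3 and Ihh exceeded Hhip in 6, so the order within each of these pairs depended on the mouse. Reads of a low gene limit what can be said of it: Ihh had between 2 and 109 counts in a library and Hhip between 18 and 71, against at least 253 for each of the other 7 genes.

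The sequences upstream of Hand2 and Smo, the axis genes that passed a test, and of Ihh, the ligand, are given as the 250 bases before the RefSeq gene start on GRCm38.p6. The counts were made on GRCm39, so these coordinates are not those of the deposited data. Of the 9 axis genes 8 matched the promoter table, and Gli1 did not. Capitals mark GGGTGG, the core of the GLI binding site, and CATCTG, an E-box that HAND factors can bind, on either strand (CCACCC and CAGATG on the other).
Hand2, chr8:57320733-57320982, plus strand: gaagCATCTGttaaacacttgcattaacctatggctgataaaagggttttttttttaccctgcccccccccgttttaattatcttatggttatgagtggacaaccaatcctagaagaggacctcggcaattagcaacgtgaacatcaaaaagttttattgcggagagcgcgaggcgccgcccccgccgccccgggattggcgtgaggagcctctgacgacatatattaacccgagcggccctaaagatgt
Smo, chr6:29735247-29735496, plus strand: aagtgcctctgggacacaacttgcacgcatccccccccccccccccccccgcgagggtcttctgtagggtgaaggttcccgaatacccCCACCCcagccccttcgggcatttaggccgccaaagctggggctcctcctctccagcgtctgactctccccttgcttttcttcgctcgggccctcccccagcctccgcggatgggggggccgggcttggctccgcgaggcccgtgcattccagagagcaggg
Ihh, chr1:74951673-74951922, minus strand: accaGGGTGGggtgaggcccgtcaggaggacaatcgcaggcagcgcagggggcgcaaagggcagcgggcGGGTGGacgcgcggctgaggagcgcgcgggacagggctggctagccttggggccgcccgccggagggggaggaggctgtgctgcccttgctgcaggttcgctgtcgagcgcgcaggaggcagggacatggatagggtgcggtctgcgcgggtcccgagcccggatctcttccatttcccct
Upstream of Hand2 a CATCTG lay 246 bases before the start, a hexamer found in 14.4% of 32851 promoter windows of this length and in 2 of the 8 axis genes, Gli3 and Hand2. The GLI core was found in 28.1% of windows and in 5 of the 8 genes, Ihh, Smo, Gli2, Gli3 and Hhip, with matches 246 and 181 bases upstream of Ihh and 162 bases upstream of Smo on the minus strand. The full 9-base GLI site TGGGTGGTC, which contains that core, was in 0.225% of windows, and the progesterone receptor half-site TGTTCT in 16.1%, and neither was in these windows of the 8 axis genes. Such letter matches describe the sequence and do not show binding. The Hand2 window was 49.2% G or C, against 68.4% for Smo and 72.0% for Ihh.

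The ligand came first in the signalling order and last but one in abundance. Ihh stood at 2.82, 0.456 and 0.503 CPM in tamoxifen+primidone replicates 1, 2 and 3, at 0.0514, 0.469 and 0.511 CPM in the tamoxifen replicates and at 0.183, 1.34 and 0.297 CPM in the control replicates. Tamoxifen+primidone replicate 1 and control replicate 2 were high and tamoxifen replicate 1 was almost empty, and the 3 groups overlapped. The edgeR log2 fold change was 1.05 ± 1.00 (SE) for tamoxifen+primidone against control (adjusted p = 0.569) and −0.81 ± 1.04 for tamoxifen against control (adjusted p = 0.739). Their 95% intervals were −1.17 to 3.28 and −3.14 to 1.52. Without tamoxifen+primidone replicate 1 the first value was −0.33, and without control replicate 2 the second was 0.52, so a single mouse set the sign of each.

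Ptch1, the receptor and a GLI target, had 51.8, 38.8 and 31.4 CPM in tamoxifen+primidone, 31.6, 42.4 and 32.6 CPM in tamoxifen and 38.1, 50.9 and 35.4 CPM in control uteri. The ranges overlapped throughout, and the highest library was the one with most Ihh in the tamoxifen+primidone and control groups but not in the tamoxifen group. The log2 fold change was −0.03 ± 0.20 for tamoxifen+primidone against control (95% interval −0.48 to 0.43) and −0.22 ± 0.20 for tamoxifen against control (−0.68 to 0.23), with edgeR adjusted p of 0.954 and 0.619. Hhip, a decoy that binds the ligand and is itself a target, was near the limit of detection, at 0.507 to 0.805 CPM in tamoxifen+primidone, 0.462 to 1.81 CPM in tamoxifen and 0.723 to 1.38 CPM in control uteri, and did not pass (−0.46 ± 0.57 for tamoxifen+primidone against control, edgeR adjusted p = 0.673).

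Smo, the transducer that Patched 1 holds in check, had 147, 152 and 147 CPM in tamoxifen+primidone, 130, 118 and 130 CPM in tamoxifen and 123, 122 and 116 CPM in control uteri. All 3 tamoxifen+primidone libraries lay above all 6 others, whereas tamoxifen and control libraries overlapped. Against control the log2 fold change was 0.31 ± 0.07 (95% interval 0.15 to 0.46, edgeR adjusted p = 0.0388), and against tamoxifen it was 0.24 ± 0.07 (0.08 to 0.40, edgeR adjusted p = 0.197). The first call was close to the threshold: it was lost, at edgeR adjusted p between 0.0512 and 0.131, when any 1 of tamoxifen replicates 1 and 3, the 3 tamoxifen+primidone replicates or the 3 control replicates was left out, although the log2 fold change stayed between 0.28 and 0.32. It was also lost when the fit held only the 6 libraries compared (adjusted p = 0.0533).

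Among the GLI factors, Gli1, the activator whose own transcription reports pathway activity, had 29.8, 9.09 and 19.2 CPM in tamoxifen+primidone, 6.50, 9.65 and 9.41 CPM in tamoxifen and 9.15, 11.9 and 8.90 CPM in control uteri. Replicates 1 and 3 of tamoxifen+primidone were above all other libraries and replicate 2 was among them. The log2 fold change was 1.19 ± 0.37 against tamoxifen (edgeR adjusted p = 0.215) and 0.95 ± 0.37 against control (edgeR adjusted p = 0.159), short of the threshold in both. DESeq2 gave 1.18 with adjusted p = 0.0237 and 0.95 with adjusted p = 0.0447. Without tamoxifen+primidone replicate 2 edgeR gave 1.29 against control (adjusted p = 0.0330), and without replicate 1 it gave 0.50 (adjusted p = 0.368). Gli1 overlaps Arhgap9 on the opposite strand in the GRCm38 annotation, and whether the counting used strand is not stated, so reads of the pair may not be separated. Arhgap9 itself had 8.48, 12.8 and 8.10 CPM in tamoxifen+primidone replicates 1, 2 and 3, and was highest in the replicate where Gli1 was lowest.

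Gli2, the main activator at the start of the response, ran from 26.0 to 35.6 CPM in tamoxifen+primidone, 25.5 to 33.7 CPM in tamoxifen and 20.7 to 26.8 CPM in control uteri, with overlap between all groups (0.30 ± 0.15 for tamoxifen+primidone against control, edgeR adjusted p = 0.269). Gli3, which serves mainly as a repressor in the absence of ligand, had 17.7, 17.7 and 13.9 CPM in tamoxifen+primidone, 10.7 to 13.0 CPM in tamoxifen and 15.5, 12.3 and 14.1 CPM in control uteri. The tamoxifen+primidone libraries lay above the tamoxifen libraries without overlap, and the control libraries overlapped both. Against tamoxifen the log2 fold change of Gli3 was 0.51 ± 0.15 (95% interval 0.18 to 0.84), which did not pass (edgeR adjusted p = 0.193). With Smo and Hand2, Gli3 was 1 of 3 axis genes whose tamoxifen+primidone and tamoxifen ranges did not overlap, all of them higher, where 8.08% of all genes tested were apart in that direction. Against control the ranges of 2 axis genes, Smo and Hand2, were apart, where 14.1% of all genes were apart in that direction. Between tamoxifen and control 0 of 9 were apart, where 26.1% of all genes were.

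**Figure D2:**
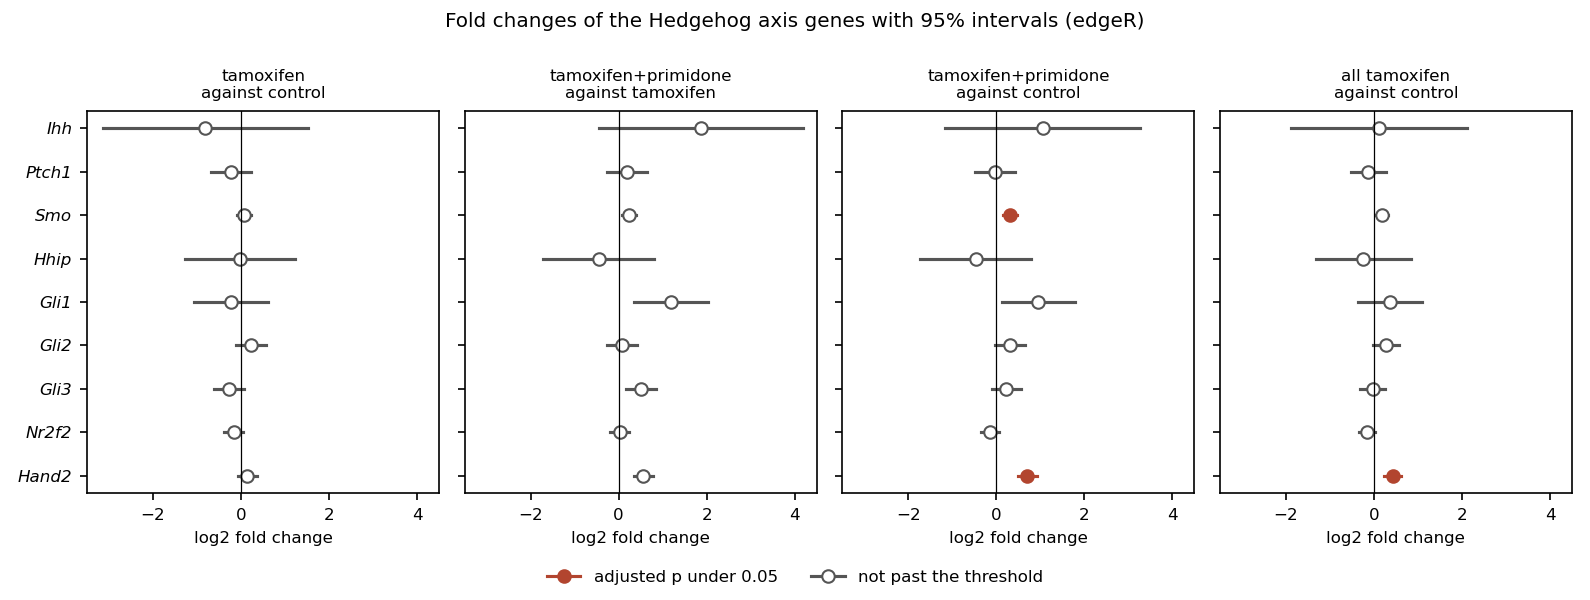
Log2 fold changes of the 9 axis genes from edgeR, 1 panel per comparison, with 95% intervals. Filled points passed an adjusted p of 0.05: Smo and Hand2 for tamoxifen+primidone against control, and Hand2 for both tamoxifen-dosed groups against control. The intervals of Ihh and Hhip, the genes with fewest counts, are the widest.

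Of the stromal factors, both measured in whole uterus, Nr2f2 had 141, 140 and 126 CPM in tamoxifen+primidone, 135, 148 and 118 CPM in tamoxifen and 153, 157 and 140 CPM in control uteri. The dosed libraries lay lower on average but overlapped the control range, and the log2 fold change was −0.14 ± 0.10 for tamoxifen+primidone (edgeR adjusted p = 0.398) and −0.17 ± 0.10 for tamoxifen (edgeR adjusted p = 0.388), each against control. Hand2 had 50.5, 43.0 and 43.7 CPM in tamoxifen+primidone, 32.7, 29.7 and 30.6 CPM in tamoxifen and 26.9, 30.9 and 26.4 CPM in control uteri. Every tamoxifen+primidone library exceeded every other library, and the tamoxifen and control ranges overlapped. Nr2f2 is overlapped by B130024G19Rik on the opposite strand in the GRCm38 annotation, which carries the same doubt about strand as Gli1.

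The log2 fold change of Hand2 was 0.70 ± 0.10 for tamoxifen+primidone against control (95% interval 0.48 to 0.93, edgeR adjusted p = 0.00777). This call held under all 19 alternatives tried, with log2 fold changes between 0.63 and 0.78 and adjusted p up to 0.0425. Against tamoxifen it was 0.56 ± 0.10 (0.34 to 0.78), with an unadjusted p of 0.000189 that did not pass adjustment over all genes (edgeR adjusted p = 0.0776), and DESeq2 called it (adjusted p = 0.000314). Tamoxifen alone gave 0.14 ± 0.10 against control (−0.08 to 0.36, edgeR adjusted p = 0.489). The average of both tamoxifen-dosed groups passed at 0.42 ± 0.09 (edgeR adjusted p = 0.0253), a value that averages 0.70 and 0.14. That call was lost without tamoxifen replicate 1 (0.0542), control replicate 1 (0.121) or control replicate 3 (0.116). Hand2 is transcribed head to head with the antisense gene Hand2os1, which overlaps it on the opposite strand in the GRCm38 annotation, so some of the counted reads may come from that transcript. In whole tissue, more cells that express a gene and more RNA per cell cannot be told apart.

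To set the stromal and epithelial genes beside markers of their compartment, each was expressed as log2 CPM minus the mean log2 CPM of 17 such markers. Relative to endometrial stroma markers Hand2 lay at −2.25 ± 0.11 in tamoxifen+primidone, −2.76 ± 0.09 in tamoxifen and −2.85 ± 0.18 in control uteri (SD, n = 3 each). The difference of 0.60 between tamoxifen+primidone and control had an exact two-sided permutation p of 0.1, the smallest that 3 against 3 mice can give, as did the difference of 0.51 between tamoxifen+primidone and tamoxifen. The summed stroma markers stood at 8210 to 10374 CPM in tamoxifen+primidone, 9304 to 9723 CPM in tamoxifen and 7519 to 9212 CPM in control uteri, so the groups overlapped in them, and all 17 were tested. Nr2f2 is made by venous endothelium as well as by stroma, so its level relative to stroma markers is not a level per stromal cell. Nr2f2 relative to the same markers lay at −0.67 ± 0.08 in the 6 tamoxifen-dosed uteri and −0.43 ± 0.10 in the 3 control uteri, a difference of −0.24 (exact permutation p = 0.0238, the smallest this design can give). With any 1 control library left out p was 0.0714, the smallest possible with 2 controls. The marker list contains Dio2, which itself was higher in the dosed groups, and with the median of the markers in place of their mean the Nr2f2 difference was −0.40. Ihh relative to uterine epithelium markers lay at −7.78 ± 1.5 in tamoxifen+primidone, −9.72 ± 1.37 in tamoxifen and −9.01 ± 1.31 in control uteri (SD, n = 3 each). It differed by 1.94 between tamoxifen+primidone and tamoxifen, with an exact permutation p of 0.1, again the smallest possible, by 1.23 between tamoxifen+primidone and control (exact p = 0.4) and by −0.71 between tamoxifen and control (exact p = 0.6). Averaged over both dosed groups the difference from control was 0.26 (exact permutation p = 0.881). Tamoxifen+primidone replicate 1 lay at −6.05 and replicates 2 and 3 at −8.78 and −8.50, against −8.81 for the highest tamoxifen library. Without replicate 1 the difference from tamoxifen was 1.1, with tamoxifen replicate 1 at −11.3 on 2 counts of Ihh. Ihh itself was at −0.977 and −0.849 log2 CPM in tamoxifen+primidone replicates 2 and 3, against −0.940 and −0.828 in tamoxifen replicates 2 and 3. The epithelium marker mean was 7.81 and 7.65 in the former 2 libraries and 8.11 and 7.98 in the latter.

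**Figure D3:**
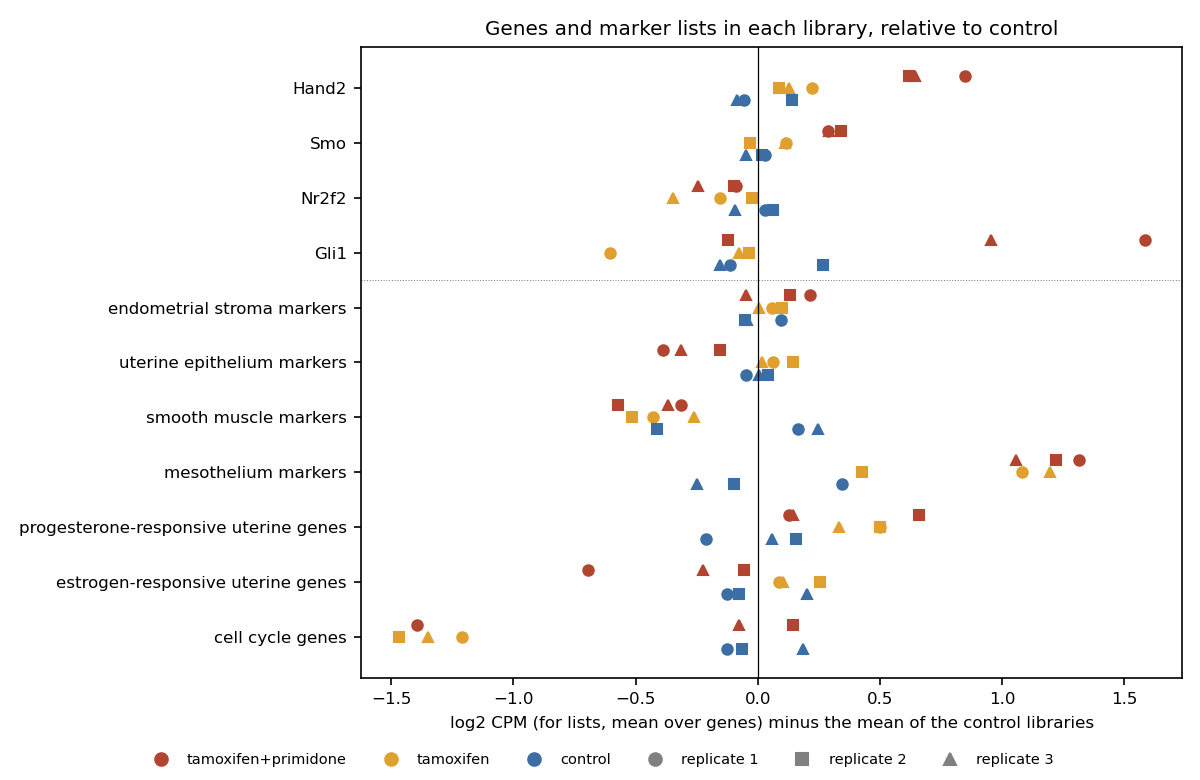
Log2 CPM of 4 axis genes and mean log2 CPM of marker and hormone response lists in each library, as the difference from the control mean, with tamoxifen+primidone above tamoxifen above control in each line. Hand2 of all tamoxifen+primidone mice lies above the other groups while the stroma marker list of the groups overlaps. Epithelium markers are lowest in tamoxifen+primidone mice.

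Marker lists of other cells also differed between the groups. Uterine epithelium markers summed to 5086 to 6091 CPM in tamoxifen+primidone, 7098 to 7709 CPM in tamoxifen and 6846 to 7253 CPM in control uteri, and 4 of 17 fell in tamoxifen+primidone against control (Cldn4, Elf3, Esrp1 and Spint1), where 3.21% of all genes fell, and 0 rose. Mesothelium markers summed to 219 to 249 CPM in tamoxifen+primidone, 168 to 216 CPM in tamoxifen and 116 to 156 CPM in control uteri, and 4 of 8 rose in tamoxifen+primidone against control, where 2.14% of all genes rose. Smooth muscle markers summed to 9916 to 12178 CPM in tamoxifen+primidone, 10114 to 11955 CPM in tamoxifen and 11893 to 18446 CPM in control uteri. In the same comparison 2 of 18 fell, where 3.21% of all genes fell. There 11 had an unadjusted edgeR p under 0.05, all lower, as 23.2% of all genes did in either direction. For both dosed groups against control 5 of 18 fell, where 3.04% of all genes fell. The ranges of 9 were apart in tamoxifen against control, all lower, where 26.1% of all genes were apart in either direction. Gland markers, 4 of 8 tested, summed to 27.5 to 36.9 CPM in tamoxifen+primidone, 24.9 to 38.7 CPM in tamoxifen and 16.6 to 18.5 CPM in control uteri, and 1 rose in tamoxifen+primidone against control, Ttr (1.91 ± 0.33, edgeR adjusted p = 0.0137). Ovary and oviduct markers, 7 of 10 tested, summed to 52.1 to 57.8 CPM in tamoxifen+primidone, 106 to 307 CPM in tamoxifen and 58.5 to 88.9 CPM in control uteri. Of these 0 passed in tamoxifen+primidone against control with edgeR. DESeq2 called 1 higher and 3 lower, where of all 15186 genes it called 889 higher and 987 lower. Ovgp1, an oviduct glycoprotein, passed the test of any difference among the groups (edgeR adjusted p = 0.0472). All 17 epithelium, 8 mesothelium and 18 smooth muscle markers passed the low-count filter, with Krt8, Wt1 and Acta2 the most abundant of each list, as did all 17 stroma markers, led by Dcn. All 7 adipocyte markers passed it too, so passing the filter does not measure how many cells of a type were present. The sums of mesothelium and gland markers lay above all control sums in tamoxifen uteri too. The sums of epithelium markers were below both other groups in tamoxifen+primidone uteri. The part of these differences in the Hand2 and Smo results was not tested. Tamoxifen+primidone replicate 1, in which Ihh, Gli1, Ptch1 and Hand2 were all at their highest, also stood apart in other lists. Its mean log2 CPM was 2.90 over 24 cell cycle genes, against 4.22 and 4.44 in the other mice of its group, and 7.09 over 19 estrogen-responsive genes, against 7.56 and 7.72. Without that library Hand2 remained 0.63 higher on the log2 scale in tamoxifen+primidone than in control uteri (edgeR adjusted p = 0.0164).

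Whether ligand, targets and stromal factors varied together from mouse to mouse was examined by correlating log2 CPM of Ihh with each of the other 8 axis genes over the 9 libraries. The highest values were with the GLI targets Gli1 (Pearson r = 0.81, exact permutation p = 0.00782, adjusted over the 8 relations 0.0555) and Ptch1 (r = 0.77, exact permutation p = 0.0139, adjusted 0.0555). By rank, Spearman's rho was 0.87 for Gli1 (exact permutation p = 0.00451, adjusted 0.0361) and 0.50 for Ptch1 (exact permutation p = 0.178, adjusted 0.567). After removal of the group means, r was 0.76 for Gli1 (permutation within groups, exact p = 0.0185, adjusted 0.148) and 0.80 for Ptch1 (exact p = 0.0602, adjusted 0.241). Without the 2 libraries farthest from the median of Ihh, tamoxifen+primidone replicate 1 and tamoxifen replicate 1, r fell to 0.37 for Gli1 and 0.54 for Ptch1 over 7 libraries, so both relations rest in large part on those mice. Hand2 had r = 0.52 with Ihh (exact permutation p = 0.152), Gli3 0.43, Smo 0.30, Gli2 0.13, Nr2f2 0.13 and Hhip 0.12, and none of these passed. Genes outside the axis had higher r with Ihh, such as Thap2 (0.94) and Ice1 (0.92). The share of all genes that reach the values of Gli1 and Ptch1 was not examined. Ihh had few counts, so counting error enters each of these values.

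**Figure D4:**
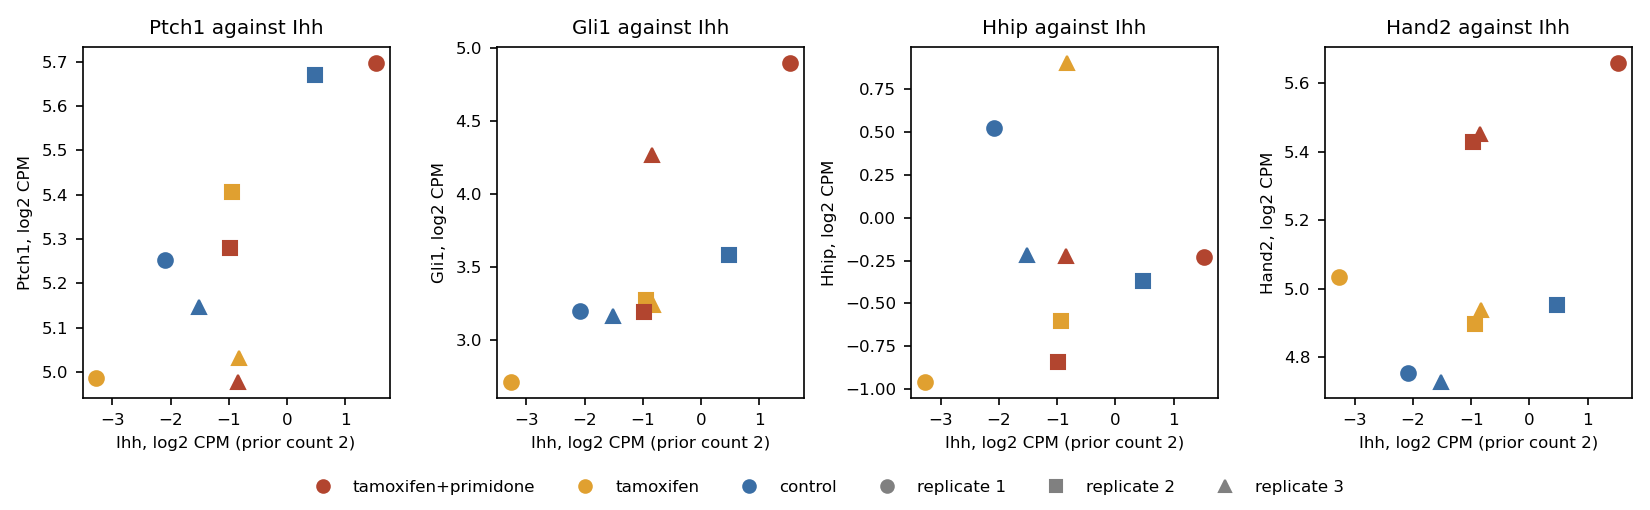
Log2 CPM of Ptch1, Gli1, Hhip and Hand2 plotted against log2 CPM of Ihh in the 9 libraries, coloured by group and shaped by replicate number. The tamoxifen+primidone mouse at the far right is highest in Ihh, Ptch1, Gli1 and Hand2. Hand2 of the other tamoxifen+primidone mice stays high although their Ihh is in the middle of the range.

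The genes whose profile over the 9 libraries was most like that of an axis gene, among those averaging at least 5 CPM, were listed by Pearson r of log2 CPM as a description. Hand2 was most like Phb2 (r = 0.96), Itm2a (0.96), Gtf2i (0.96), Mpdz (0.95) and Zfp354c (0.95). Nr2f2 was most like Ccn3 (0.95), Cpeb1 (0.95), Gadd45b (0.95), Syne2 (0.94) and Zbtb14 (0.94). Ptch1 was most like Numa1 (0.95), Orai3 (0.94), Cc2d2a (0.94), Hdac5 (0.94) and Zfp512 (0.93), and Ihh most like Thap2 (0.94), Rpia (0.93), Vps13d (0.92), Kmt2a (0.92) and Ice1 (0.92). Within the axis the closest pair was Hand2 and Smo (r = 0.93), singled out after the values were seen, and it shares the same libraries and group differences.

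The rest of the Hedgehog pathway was represented by 38 further genes, from the other ligands through co-receptors and cilium proteins to downstream targets. Of these 37 were in the table and 35 were tested, the forkhead targets Foxf2 and Foxl1 being below the filter. In tamoxifen+primidone against control 1 of 35 rose, Evc2, and 0 fell, where 2.14% of all genes rose and 3.21% fell. There 9 were higher and 2 lower at an unadjusted edgeR p under 0.05, where 11.3% of all genes were higher and 23.2% passed in either direction. The median log2 fold change was 0.13 over the list beside 0.01 over all genes tested. In tamoxifen against control and in tamoxifen+primidone against tamoxifen 0 passed with edgeR, where 1.53% and 0.0132% of all genes did. The medians were 0.03 and 0.05 beside 0.00 and 0.02. The unadjusted edgeR p was under 0.05 for 5 of them in the first comparison, as for 17.8% of all genes. In the second it was for 6, all higher, as for 6.3% of all genes in that direction. DESeq2 called 2 and 0 of them. Of all 15186 genes DESeq2 called 520 higher and 585 lower in the first and 211 and 366 in the second. Evc2, which with Evc forms a ciliary complex that passes the signal on from Smoothened, had 30.5, 32.1 and 29.0 CPM in tamoxifen+primidone, 25.6, 23.0 and 25.1 CPM in tamoxifen and 20.4, 21.7 and 18.7 CPM in control uteri. The 3 groups did not overlap one another. Its log2 fold change was 0.59 ± 0.10 for tamoxifen+primidone against control (edgeR adjusted p = 0.0117) and 0.44 ± 0.09 for both dosed groups against control (edgeR adjusted p = 0.0213). Both calls were lost without control replicate 1 or control replicate 3, at adjusted p of 0.0535 to 0.104. Evc had 30.3 ± 5.39 CPM in tamoxifen+primidone, 22.5 ± 1.62 CPM in tamoxifen and 22.3 ± 1.52 CPM in control uteri, and did not pass for tamoxifen+primidone against control (0.44 ± 0.13, edgeR adjusted p = 0.0781). Tamoxifen+primidone replicate 1 had 36.5 CPM of Evc, against 27.7 and 26.6 CPM in replicates 2 and 3. Btrc, a ubiquitin ligase subunit that marks GLI proteins for processing, had 25.3 ± 2.39 CPM in tamoxifen+primidone, 25.2 ± 2.68 CPM in tamoxifen and 32.3 ± 2.31 CPM in control uteri (−0.35 ± 0.11 for tamoxifen+primidone against control, edgeR adjusted p = 0.0972). Sufu, the brake on GLI proteins, stood at 0.40 ± 0.11 in the same comparison without passing (edgeR adjusted p = 0.0676). It was picked after its values were seen, and DESeq2 called it. Shh, the Sonic hedgehog ligand, was on the list but not among the genes of the table used here.

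**Figure D5:**
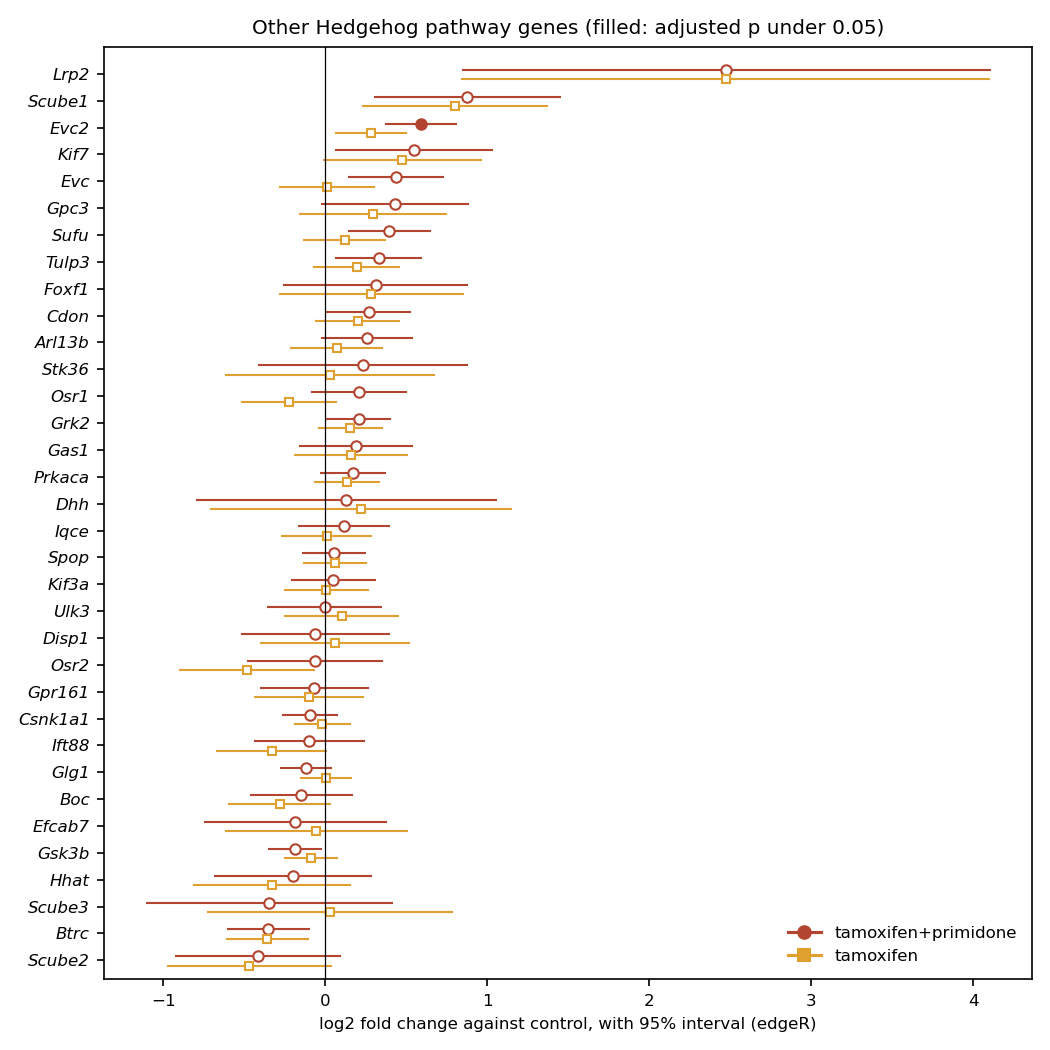
Log2 fold changes against control of other Hedgehog pathway genes, with 95% intervals from edgeR, for tamoxifen+primidone (circles) and tamoxifen (squares), which share the control libraries. Evc2 in tamoxifen+primidone is the only filled point, with an adjusted p under 0.05. Most intervals of either group include 0.

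Of 16 genes listed here as epithelial regulators upstream of Ihh, 15 were tested, and a place on the list does not show that a gene acts on Ihh. In tamoxifen+primidone against control 1 of 15 rose, where 2.14% of all genes rose. It was Klf15, a Krüppel-like factor, at 14.5 ± 2.16 CPM against 8.53 ± 1.42 CPM (0.76 ± 0.19, edgeR adjusted p = 0.0465). Klf15 also passed for both dosed groups against control (0.75, edgeR adjusted p = 0.0339), and it held under 9 of 19 and 12 of 18 alternatives. Without control replicate 1, 2 or 3 both calls were lost, at adjusted p up to 0.145. The first was also lost without any 1 of the tamoxifen+primidone replicates or tamoxifen replicates 2 and 3, and the second without tamoxifen replicate 1 or tamoxifen+primidone replicate 2. Pgr, the progesterone receptor that drives Ihh, stood at −0.21 ± 0.12 and its partner Gata2 at −0.22 ± 0.11 for tamoxifen+primidone against control, and neither passed (edgeR adjusted p = 0.323 and 0.244). Pgr and Gata2 were picked for their role after their values were known. Fkbp4, a co-chaperone of that receptor, had 417 ± 95.6 CPM in tamoxifen+primidone, 333 ± 43.3 CPM in tamoxifen and 285 ± 19.7 CPM in control uteri, without passing (edgeR adjusted p = 0.0670 for tamoxifen+primidone against control). Esr1, the estrogen receptor, had 332 ± 26.6 CPM in tamoxifen+primidone, 292 ± 16.0 CPM in tamoxifen and 354 ± 9.75 CPM in control uteri, and did not pass either.

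Of 20 stromal genes linked to Hand2 and Nr2f2, all tested, 0 passed in any of the 4 comparisons with edgeR. For tamoxifen+primidone against control 4 were higher and 1 lower at an unadjusted edgeR p under 0.05, as 23.2% of all genes were in either direction, and DESeq2 called 2, Bmp2 and Hoxa11. Of all 15186 genes DESeq2 called 889 higher and 987 lower in that comparison. Among the fibroblast growth factors that HAND2 restrains, Fgf1 stood at −0.21 ± 0.30, Fgf2 at 0.23 ± 0.29, Fgf9 at 0.49 ± 0.32 and Fgf18 at −0.27 ± 0.34 on the log2 scale in tamoxifen+primidone against control, each with a 95% interval that includes 0, and these were likewise picked for their role. Hoxa10 and Hoxa11, homeobox genes of the endometrial stroma that are also among the stroma markers used above, were apart from both other groups in the tamoxifen+primidone libraries. Of the 20 genes, 6 were apart from control and 5 from tamoxifen in these libraries, all higher. Of all genes 14.1% and 8.08% were apart in that direction. Hoxa10 had 127 ± 13.2 CPM in tamoxifen+primidone, 86.1 ± 13.2 CPM in tamoxifen and 97.9 ± 13.2 CPM in control uteri, and Hoxa11 had 115 ± 7.26 CPM in tamoxifen+primidone, 81.2 ± 10.5 CPM in tamoxifen and 82.9 ± 14.8 CPM in control uteri. Their edgeR adjusted p for tamoxifen+primidone against control were 0.133 and 0.0753, short of the threshold. Mapk3, a kinase downstream of growth factor receptors, had 259 ± 14.7 CPM in tamoxifen+primidone, 277 ± 14.5 CPM in tamoxifen and 228 ± 4.45 CPM in control uteri (edgeR adjusted p = 0.177 for tamoxifen+primidone against control).

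Of 13 tested progesterone-responsive genes 1 passed an edgeR comparison between groups, Dio2, a deiodinase that activates thyroid hormone. It had 1010, 999 and 949 CPM in tamoxifen+primidone, 582, 943 and 812 CPM in tamoxifen and 361, 436 and 318 CPM in control uteri. The dosed groups were above control without overlap, by 1.41 ± 0.17 on the log2 scale with tamoxifen+primidone (edgeR adjusted p = 0.00429) and 1.07 ± 0.17 with tamoxifen (edgeR adjusted p = 0.0236, where 0.573% of all genes rose), the second call being lost without tamoxifen replicate 3 or control replicates 1 or 3 (up to 0.0960). Lrp2, an endocytic receptor, stood at 2.48 ± 0.73 and Hsd11b2, which inactivates glucocorticoids, at −0.29 ± 0.13 for tamoxifen+primidone against control, and neither passed (edgeR adjusted p = 0.0778 and 0.201), although Hsd11b2 passed the test of any difference among the 3 groups (edgeR adjusted p = 0.0477). Lrp2 had only 23, 27 and 1 counts in control replicates 1, 2 and 3. Its log2 fold change ran from 0.18 to 2.99 over 19 alternatives. Of 19 estrogen-responsive genes, 5 fell and 0 rose in tamoxifen+primidone against control, where 3.21% of all genes fell and 2.14% rose. Ltf, lactotransferrin, fell by 1.04 on the log2 scale, Greb1 by 1.07, Padi1 by 0.88, Padi2 by 0.79 and the mucin gene Muc1 by 0.68. For both dosed groups against control 4 fell (Greb1, Clca1, Gjb2 and Ccnb1), where 3.04% of all genes fell, and 1 rose (Sprr2f), and Sprr2f rose with tamoxifen alone as well (1.14 ± 0.18, edgeR adjusted p = 0.0226). Cdkn1a, a cell cycle inhibitor, passed the test of any difference among the 3 groups (edgeR adjusted p = 0.0167) but no comparison between groups. In tamoxifen+primidone against control the Ltf call held under 17 of 19 alternatives and was lost without control replicate 1 (edgeR adjusted p = 0.0530). The calls for Muc1, Padi1, Padi2 and Greb1 held under 14, 13, 8 and 9 of 19, and were lost without any 1 of the 3 control replicates, at adjusted p up to 0.147. Muc1 was lost as well without tamoxifen+primidone replicate 3, Padi1 without replicate 1 or 2 of that group, and Padi2 and Greb1 without any of the 3 or without tamoxifen replicate 2, and Greb1 without tamoxifen replicate 1. Sprr2f with tamoxifen alone was lost without any 1 of the 3 control replicates or tamoxifen replicate 1, at adjusted p up to 0.0960. The 5 calls for both dosed groups were each lost without any 1 of the control replicates and without tamoxifen replicate 1 or 2, among others, at adjusted p up to 0.173.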

How the data were processed

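RNA-seq libraries from the uterus of 9 mice were assigned to groups from their labels. The authors deposited unnormalized read counts, in whole numbers, and FPKM values, which are scaled for depth and gene length, for 18094 genes named by symbol. The submitters' processing notes list HISAT2, HTSeq, R 3.2.0, DESeq2 and build GRCm39. Which annotation and strand setting they used is not stated there.

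All 9 libraries entered 1 edgeR 4.0.16 quasi-likelihood fit (R 4.3.3; TMM, default low-count filter by group, robust dispersions). The p-values are two-sided and were adjusted over 15186 genes by the method of Benjamini and Hochberg, with 0.05 as the threshold. CPM use the TMM-scaled library size. Standard errors were derived from the log2 fold change and its F statistic, and intervals from the t distribution with edgeR's degrees of freedom. Log2 CPM for correlations and marker comparisons used a prior count of 2. The fit was tested on simulated data. Alternatives used DESeq2 1.42.0, other scaling factors and filters, limma 3.58.1 on log2(FPKM + 1) and log2(FPKM + 0.1), a replicate block, and each library left out in turn.

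Replicate numbers come from the labels, and no 2 libraries of a group agreed within counting noise (chi-square over degrees of freedom, 19.6 to 78.5). The genes of the axis and the lists were chosen with earlier results of these data known. Besides the 9 genes, the naming rule took list genes that passed in any of the 4 contrasts between groups and, where fewer than 3 did, those with smallest p in the test of any difference, up to 3 per list. Exceptions are stated where they occur. An item of the Hedgehog list is not reported here by name, and the plot of that list leaves it out. Sequences came from a RefSeq promoter table, and figures were drawn with matplotlib 3.10.9 in Python 3.11.15.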

Additional observations from a re-analysis of the deposited data

How the results depend on the processing

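Hand2 in tamoxifen+primidone against control passed under all 19 alternatives, while the Smo call held under 10 of 19 and Hand2 for both dosed groups under 15 of 18. DESeq2 called more axis genes: 2 for tamoxifen+primidone against tamoxifen, 2 for both dosed groups against control (Hand2 and Smo) and 3 for any difference among the groups (Gli1, Hand2 and Smo). It also called more of all 15186 genes. For tamoxifen+primidone against tamoxifen it called 211 higher and 366 lower, where edgeR called 0 and 2. For both dosed groups it called 858 higher and 942 lower, where edgeR called 277 and 462. The count of axis genes for any difference was 2 with upper-quartile factors and with each limma fit on FPKM. For tamoxifen+primidone against control it was 1 with the 6 compared libraries alone, and for both dosed groups it was 2 with limma without a filter. With a library left out these counts ran from 1 to 2 for tamoxifen+primidone against control, 0 to 1 for both dosed groups and 0 to 2 for any difference, where Hand2 was lost without control replicate 1.

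Of the 35 other Hedgehog genes tested, DESeq2 called 2 in tamoxifen against control, 5 in tamoxifen+primidone against control and 4 for both dosed groups. Of all 15186 genes it called 520 higher and 585 lower, 889 and 987, and 858 and 942 in these comparisons. With the libraries of the contrast alone, and with limma on log2(FPKM + 1) or log2(FPKM + 0.1), the count of other Hedgehog genes in tamoxifen+primidone against control was 2. With a library left out the counts ran from 0 to 1 in tamoxifen against control and 0 to 2 in the other 2 comparisons. Whether same-numbered mice pair was not settled. Over 9 same-numbered pairs the correlations ran from −0.17 to 0.29, 4 above 0.1. Over 18 pairs with different numbers they ran from −0.40 to 0.22, 5 above 0.1. With the replicate block the axis counts were unchanged, Hand2 stood at 0.70 (adjusted p = 0.0089), and the other Hedgehog genes called numbered 1 in tamoxifen against control and 3 for both dosed groups. Over all genes the block gave 124 higher and 193 lower in tamoxifen against control, where the main fit gave 87 and 146. For both dosed groups it gave 358 and 541, where the main fit gave 277 and 462.

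Over all genes, calls in tamoxifen+primidone against control were 325 higher and 487 lower, but 431 and 400 with upper-quartile factors and 623 and 321 with limma on log2(FPKM + 1). Ptch1 in that comparison turned to 0.0045 with upper-quartile factors and to 0.034, 0.037 and 0.034 with limma, and Gli3 for both dosed groups to 0.019, 0.019 and 0.019. Small or noisy values changed sign with a library left out. In tamoxifen against control, Ihh ran from −1.25 to 0.52 and Hhip from −0.86 to 0.33. In tamoxifen+primidone against tamoxifen, Ptch1 ran from −0.020 to 0.35, Hhip from −0.78 to 0.40, Gli2 from −0.059 to 0.18 and Nr2f2 from −0.056 to 0.10. In tamoxifen+primidone against control, Ihh ran from −0.33 to 2.38 and Ptch1 from −0.24 to 0.15. For both dosed groups, Ihh ran from −0.57 to 1.45, Ptch1 from −0.23 to 0.053, Hhip from −0.66 to 0.10 and Gli3 from −0.10 to 0.059.

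Relative to markers, Ihh ran from −1.21 to 0.077 in tamoxifen against control and from −0.28 to 1.00 for both dosed groups, and Nr2f2 from −0.076 to 0.042 in tamoxifen+primidone against tamoxifen and from −0.27 to −0.18 for both dosed groups. With the median of the markers Hand2 in tamoxifen against control was −0.24 and Nr2f2 in tamoxifen+primidone against tamoxifen 0.32. Pearson correlations of Ihh past the threshold numbered 0, 1 on log2(FPKM + 1) and 0 to 2 with a library left out. With Hhip r ran from −0.25 to 0.31, was −0.032 on FPKM and −0.31 without the 2 extreme libraries. With Nr2f2 it ran from −0.070 to 0.29, and with Gli3 it was −0.47 without those 2. The cause of these changes was not tested. A fit on the libraries of the contrast alone was not run for both dosed groups or for any difference, which use all 9. Groups of 3 mice and low counts of Ihh and Hhip limit what could be detected.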

Other observations

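Cell cycle genes, which mark proliferating cells, formed another pattern across the mice. Of 24 tested, 6 fell and 0 rose in tamoxifen against control uteri with edgeR, where 0.961% of all genes fell. Their mean log2 CPM was 2.90, 4.44 and 4.22 in tamoxifen+primidone replicates 1, 2 and 3, lay from 2.83 to 3.09 in tamoxifen uteri and from 4.17 to 4.49 in control uteri, so tamoxifen+primidone replicate 1 sat with the tamoxifen mice. Between tamoxifen+primidone and tamoxifen 0 of 24 passed, although 20 were higher at an unadjusted edgeR p under 0.05, as 6.3% of all genes were, and DESeq2 called 13. Of all 15186 genes DESeq2 called 211 higher and 366 lower in this comparison. The same replicate 1 held the highest Ihh, Ptch1, Gli1 and Hand2, and the part of proliferation in those levels was not tested. Adipocyte markers had a mean log2 CPM of 2.6 to 4.75 in tamoxifen+primidone, 1.40 to 4.56 in tamoxifen and 0.95 to 1.53 in control uteri, with 0 of 7 past the edgeR threshold in any of the 4 comparisons while in tamoxifen+primidone against control 5 were higher at an unadjusted edgeR p under 0.05, as 11.3% of all genes were, and DESeq2 called 4. Of all 15186 genes DESeq2 called 889 higher and 987 lower in tamoxifen+primidone against control. Blood endothelium markers, 14 tested, overlapped between all groups in their mean log2 CPM. In tamoxifen+primidone against control 0 passed with edgeR and DESeq2 called 0. There 2 had an unadjusted edgeR p under 0.05, both lower, as 23.2% of all genes did in either direction. The ranges of 2 single markers were apart in tamoxifen against control, both lower, where 26.1% of all genes were apart in either direction.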
